A study of Mus musculus with 24 samples.

Results

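DNA replication and S-phase genes are described here across 24 libraries of mouse parietal cortex. The 41 genes were taken by symbol from the deposited counts of 46983 gene identifiers, and 40 of them had enough counts to be tested among 14599 genes. The libraries come from C57BL/6 mice in 4 groups of 6 animals: 3 months old with a middle cerebral artery occlusion that was permanent (MCAO), 18 months old with MCAO, intact at 3 months and intact at 18 months. In the operated animals the artery was coagulated and cut, which leaves a small infarct in the parietal cortex, and tissue was taken 3 days later. Intact mice had no anaesthesia or operation, so effects of surgery and of ischaemia cannot be told apart.

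Cells about to divide copy their DNA in S phase. A hexameric helicase, MCM2-7, is loaded onto origins in G1, activated by Cdc45 and the GINS complex, and followed by polymerases that are held to the template by the ring-shaped clamp PCNA. Most of these genes are transcribed at the G1/S transition under E2F factors, and they are low in the adult cortex, where neurons do not divide. After ischaemia, microglia, astrocytes, endothelial cells and fibroblasts of the injured tissue are known to divide.

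Most of the genes were higher after MCAO at both ages. At 3 months, 29 of 40 tested genes rose and 0 fell, where 20.1% of all tested genes rose and 17.3% fell (edgeR quasi-likelihood test, adjusted p below 0.05 over all genes). At 18 months, 34 rose and 0 fell, where 23.7% of all genes rose and 21.5% fell. The median log2 change of the 40 genes was 1.29 at 3 months and 1.42 at 18 months, and the medians over all tested genes were -0.04 and -0.03. Scaling by spike-ins moved the median over all genes by -0.45 at 3 months and -0.29 at 18 months. With it 23 of the 40 genes rose at 3 months, where 9.67% of all genes rose, and Ccne1 fell (-0.61, adjusted p = 0.039), where 42.3% of all genes fell. At 18 months 26 rose and 0 fell, where 13.7% of all genes rose and 28.2% fell. The animals of the MCAO and control groups did not overlap, with MCAO higher, for 22 of the 40 genes at 3 months (11.1% of all genes) and for 27 at 18 months (16% of all genes).

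**Figure D1:**
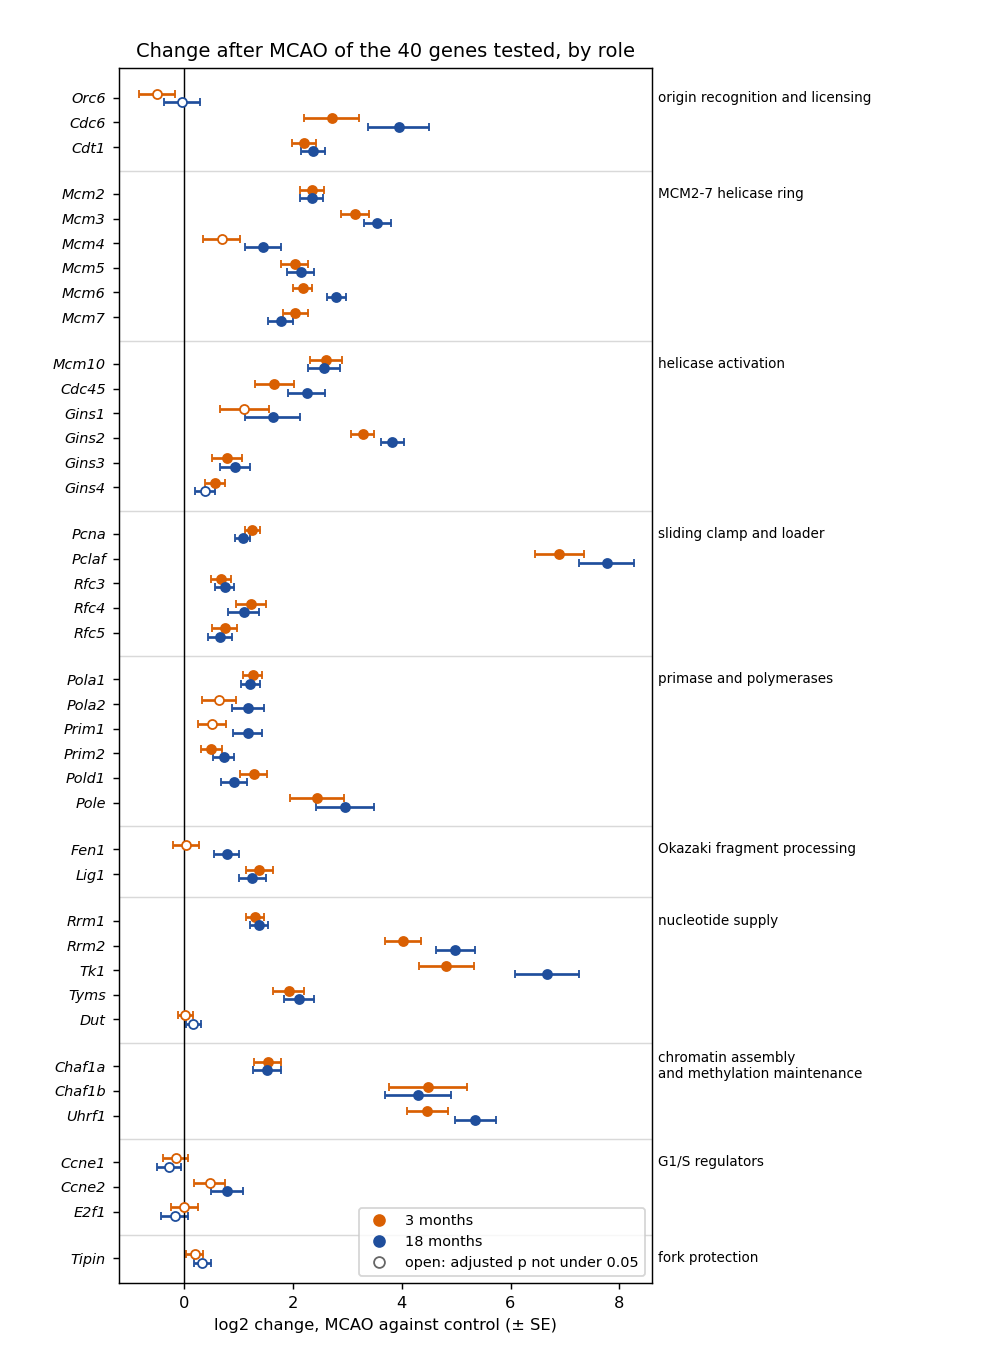
Log2 change of each tested S-phase gene, MCAO against control (x axis, with SE), at 3 and 18 months, grouped by role (rows). Filled points have an adjusted p below 0.05. Pclaf lies farthest to the right at both ages, with 6.90 and 7.76, Ccne1, E2f1, Dut, Orc6 and Tipin have open points at both, and Tk1 at 18 months and Chaf1b at 3 months had at most 2 counts in controls, so their positions there are fitted values.

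In each of the 12 MCAO libraries, at least 33 of the 41 genes lay above the mean of the controls of the same age on the log2 scale of counts per M (CPM). The share of all genes above that mean was not computed, so this count is a description only. The summed level of the 41 genes was 613 to 1086 CPM after MCAO and 357 to 419 CPM in controls at 3 months. At 18 months it was 770 to 1140 CPM after MCAO and 364 to 406 CPM in controls. In bulk tissue, more dividing cells and more RNA per cell cannot be told apart.

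Promoter letters were set beside these changes because many of the genes rose together. RefSeq windows of 250 bases before to 50 after the start of a gene (GRCm38.p6) were at hand for 33 of the 41 genes. They were searched on both strands for the E2F-type letters TTTCCCGC, TTTCGCGC, TTTGCCGC and TTTGGCGC. At least 1 of these stood in 14 of 33 genes (42.4%), against 2.61% of the 27025 genes with a window. It stood in 13 of the 28 windowed genes that rose at 18 months and in 0 of 4 that did not pass the test. These 4 were Ccne1, Dut, E2f1 and Orc6, too few to compare, and a link between letters and change was not tested. Another 38 replication factors outside the 41 had such letters in 10 genes, or 26.3%. The windows of 4 genes that hold them and of Ccne1, which does not, are shown 5′ to 3′ on the strand of the gene with E2F-type letters in capitals. A match is a run of letters and no evidence of a bound factor.
Pclaf: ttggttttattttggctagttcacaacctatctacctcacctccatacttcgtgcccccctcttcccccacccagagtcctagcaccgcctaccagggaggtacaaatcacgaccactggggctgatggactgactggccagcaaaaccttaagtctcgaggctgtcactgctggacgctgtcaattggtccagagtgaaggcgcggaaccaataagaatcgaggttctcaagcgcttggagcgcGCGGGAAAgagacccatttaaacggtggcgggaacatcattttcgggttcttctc
Mcm3: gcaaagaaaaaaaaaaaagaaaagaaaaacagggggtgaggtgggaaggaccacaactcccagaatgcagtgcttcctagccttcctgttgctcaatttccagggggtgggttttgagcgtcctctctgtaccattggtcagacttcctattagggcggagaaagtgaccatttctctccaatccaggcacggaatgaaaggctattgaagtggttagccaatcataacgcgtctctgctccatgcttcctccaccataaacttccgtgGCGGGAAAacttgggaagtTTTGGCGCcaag
Mcm5: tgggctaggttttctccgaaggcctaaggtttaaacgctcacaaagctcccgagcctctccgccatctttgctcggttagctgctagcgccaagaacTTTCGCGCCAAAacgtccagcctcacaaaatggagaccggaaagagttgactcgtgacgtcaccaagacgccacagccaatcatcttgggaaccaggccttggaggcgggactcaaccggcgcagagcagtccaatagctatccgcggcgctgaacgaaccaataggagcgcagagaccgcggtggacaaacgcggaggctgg
Mcm6: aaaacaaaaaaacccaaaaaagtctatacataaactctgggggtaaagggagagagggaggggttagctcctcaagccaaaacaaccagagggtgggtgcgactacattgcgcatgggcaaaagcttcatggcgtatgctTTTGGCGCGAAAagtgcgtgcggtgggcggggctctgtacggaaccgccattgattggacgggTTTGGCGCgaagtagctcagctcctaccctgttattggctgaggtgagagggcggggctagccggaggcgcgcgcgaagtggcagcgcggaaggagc
Ccne1: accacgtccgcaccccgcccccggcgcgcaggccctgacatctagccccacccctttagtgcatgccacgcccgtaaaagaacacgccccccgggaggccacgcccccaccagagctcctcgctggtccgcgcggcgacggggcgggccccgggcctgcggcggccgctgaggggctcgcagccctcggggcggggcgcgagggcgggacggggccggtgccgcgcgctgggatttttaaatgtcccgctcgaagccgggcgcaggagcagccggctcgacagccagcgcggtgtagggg
The Mcm5 window, at chr8:75109259-75109558 on the plus strand, has overlapping words on opposite strands, TTTCGCGC and TTTGGCGC, which read together as TTTCGCGCCAAA. In the Mcm6 window, at chr1:128359656-128359955 on the minus strand, the same overlap is turned round and another match lies nearer the start. The Mcm3 window, at chr1:20820263-20820562 on the minus strand, holds its 2 matches after the start, and the Pclaf window, at chr9:65890073-65890372 on the plus strand, holds 1 match across it. The window of Ccne1 is at chr7:38107441-38107740 on the minus strand. The letters CCAAT, another element common in promoters of cell cycle genes, stood in 57.6% of the 33 genes and in 41.1% of all. The letters TTTGAA of the cell cycle homology region, known from promoters active in G2 and M phase, stood in 12.1% of the 33 and in 20.2% of all.

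Licensing factors prepare the origins. Cdt1, which with Cdc6 loads the MCM ring, had 16.1 (lowest), 23.9 (median) and 36.9 CPM (highest) after MCAO and 4.52, 5.42 and 6.91 CPM in controls at 3 months, with no overlap (log2 change 2.21 ± 0.22 (SE), adjusted p = 1.01e-08). At 18 months its change was 2.38 ± 0.22 (adjusted p = 1.35e-09). Cdc6 rose by 2.72 ± 0.50 at 3 months and 3.95 ± 0.56 at 18 months on the log2 scale. Orc1, the largest subunit of the origin recognition complex, was too rare to test, with raw counts of 29 after MCAO and 1 in controls at 3 months, summed over 6 libraries each. The ratio of CPM was 22.8 with a 95% interval of 3.79 to 933 that covers counting error only. At 18 months Orc1 had 52 counts after MCAO and 2 in controls, a ratio of 19.4 (5.10 to 164). Every MCAO library held at least 2 Orc1 counts, and 9 of the 12 control libraries held 0. Orc6, another subunit of that complex, had the lowest change of the 40 genes at 3 months, with 3.13, 17.7 and 33.1 CPM after MCAO and 13.0, 26.0 and 31.7 CPM in controls. Those groups overlapped, and the log2 change of -0.50 ± 0.33 did not pass the test (adjusted p = 0.257). Without libraries A and C of the MCAO group, the change of Orc6 was -0.10 ± 0.23 (adjusted p = 0.802) and E2f1 had the lowest. At 18 months it was -0.03 ± 0.33 (adjusted p = 0.951).

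All 6 subunits of the MCM ring were higher after MCAO at 18 months, and 5 at 3 months, where 23.7% and 20.1% of all genes rose. Mcm5 had 13.0, 23.1 and 43.7 CPM after MCAO and 4.53, 5.45 and 8.83 CPM in controls at 3 months (log2 change 2.04 ± 0.25, adjusted p = 3.14e-07). At 18 months it had 17.6, 27.3 and 31.6 CPM after MCAO and 4.25, 5.19 and 8.11 CPM in controls (2.14 ± 0.25, adjusted p = 1.01e-07). The lowest MCAO animal was above the highest control at both ages. Mcm3 changed most, by 3.14 ± 0.25 at 3 months and 3.55 ± 0.25 at 18 months, and Mcm2, Mcm6 and Mcm7 by 1.78 to 2.80. Mcm4 was the exception at 3 months, with 5.24, 38.6 and 50.5 CPM after MCAO and 16.1, 18.8 and 22.8 CPM in controls (0.69 ± 0.33, adjusted p = 0.108). At 18 months Mcm4 had 48.7, 50.7 and 76.0 CPM after MCAO and 14.4, 19.1 and 31.7 CPM in controls, with no overlap (1.45 ± 0.33, adjusted p = 0.000803).

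Factors that activate the helicase moved unevenly. Gins2, a subunit of the GINS complex, had 10.2, 12.5 and 17.2 CPM after MCAO and 0.901, 1.33 and 1.66 CPM in controls at 3 months (3.28 ± 0.22, adjusted p = 8.06e-12). At 18 months it had 16.8, 20.8 and 31.3 CPM after MCAO and 1.29, 1.46 and 1.90 CPM in controls (3.83 ± 0.21, adjusted p = 1.64e-13). The groups were far apart at both ages. The other GINS subunits changed less. Gins1 had 0.626, 2.02 and 3.13 CPM after MCAO and 0.369, 0.906 and 1.34 CPM in controls at 3 months (1.11 ± 0.45, adjusted p = 0.0554). That change of Gins1 passed in 7 of 32 alternatives, among them DESeq2 (adjusted p = 0.0384). At 18 months Gins1 had 0.955, 1.84 and 2.12 CPM after MCAO and 0, 0.429 and 1.05 CPM in controls (1.63 ± 0.50, adjusted p = 0.00887). Its groups overlapped at both ages. Gins4 had 8.07, 10.9 and 16.0 CPM after MCAO and 6.31, 7.33 and 9.41 CPM in controls at 3 months (0.57 ± 0.18, adjusted p = 0.0164). At 18 months it had 8.89, 12.1 and 13.3 CPM after MCAO and 6.32, 8.27 and 11.7 CPM in controls (0.39 ± 0.18, adjusted p = 0.0844). This change of Gins4 at 18 months passed in 4 of 33 alternatives. Gins3 rose by 0.79 ± 0.27 and 0.94 ± 0.27. The call of Gins3 at 3 months was lost without control F or MCAO C (adjusted p = 0.0629 and 0.0808), that of Gins4 at 3 months without MCAO A (0.41, adjusted p = 0.0777), and all 3 calls of Gins3 and Gins4 with spike-in scaling. Mcm10, which joins the helicase to polymerase alpha, rose by 2.60 ± 0.29 and 2.57 ± 0.30, and Cdc45 by 1.66 ± 0.36 and 2.25 ± 0.34.

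Pclaf (ENSMUSG00000040204), a small PCNA-binding protein, changed most of the 40 genes at both ages. It had 26.4, 50.4 and 104 CPM after MCAO and 0, 0.242 and 1.09 CPM in controls at 3 months (6.90 ± 0.44, adjusted p = 1.27e-11). At 18 months Pclaf had 37.3, 48.4 and 70.7 CPM after MCAO and 0, 0.0924 and 0.695 CPM in controls. In all, 4 of the 12 control libraries held no Pclaf count. Pcna, the clamp itself, was already expressed in intact cortex. It had 28.5, 31.5 and 34.9 CPM after MCAO and 10.8, 13.2 and 15.6 CPM in controls at 3 months (1.26 ± 0.13, adjusted p = 3.22e-08). At 18 months Pcna had 29.7, 32.2 and 36.7 CPM after MCAO and 9.02, 16.0 and 19.7 CPM in controls (1.08 ± 0.13, adjusted p = 1.86e-07). Its groups did not overlap, and its SD within the MCAO groups was 2.43 and 2.70 CPM. The clamp loader subunits Rfc3, Rfc4 and Rfc5 rose by 0.66 to 1.23 at both ages. With spike-in scaling none of the 3 passed at either age. Rfc3 then had changes of 0.23 and 0.45 (adjusted p = 0.437 and 0.138), Rfc4 of 0.75 and 0.82 (adjusted p = 0.0703 and 0.0628) and Rfc5 of 0.26 and 0.37 (adjusted p = 0.355 and 0.212). Without MCAO A alone, Rfc5 at 3 months had 0.47 (adjusted p = 0.0559).

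**Figure D2:**
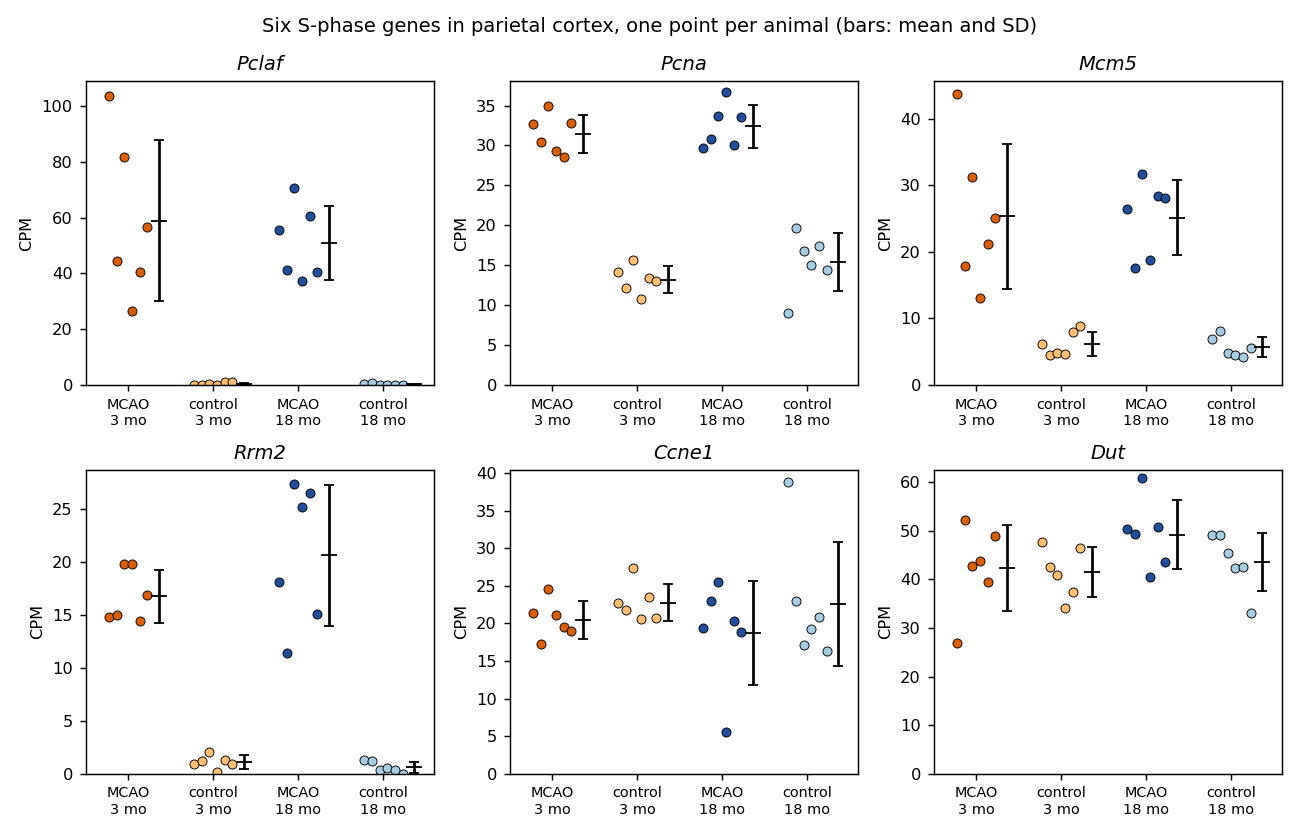
CPM (y axis, linear from 0) in each animal of the 4 groups for 6 S-phase genes, with mean and SD as bars. Pclaf, Pcna, Mcm5 and Rrm2 show no overlap between MCAO and control at either age, whereas Ccne1 and Dut overlap at both.

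Of 6 primase and polymerase genes, 4 rose at 3 months and 6 at 18 months, where 20.1% and 23.7% of all genes rose. The largest change was that of Pole, the catalytic subunit of the leading-strand polymerase. Pole had a mean of 2.29 ± 0.656 CPM after MCAO and 0.448 ± 0.465 CPM in controls at 3 months (SD, n = 6 each), a log2 change of 2.44 ± 0.49. At 18 months its change was 2.96 ± 0.53. Pola1, the catalytic subunit of polymerase alpha, rose by 1.27 ± 0.17 and 1.22 ± 0.17, and Pold1, of the lagging-strand polymerase, by 1.28 ± 0.24 and 0.92 ± 0.24. The call of Pold1 at 18 months was lost with spike-in scaling (0.65, adjusted p = 0.0683). Pola2, the accessory subunit of polymerase alpha, had 1.80, 3.06 and 5.37 CPM after MCAO and 1.48, 2.35 and 2.53 CPM in controls at 3 months (0.65 ± 0.31, adjusted p = 0.102). At 18 months Pola2 had 3.63, 5.47 and 7.87 CPM after MCAO and 1.16, 2.19 and 4.15 CPM in controls (1.17 ± 0.29, adjusted p = 0.00176). Its groups overlapped at both ages. Prim1, the catalytic primase subunit, had 3.07, 4.18 and 5.64 CPM after MCAO and 1.50, 2.89 and 4.53 CPM in controls at 3 months (0.52 ± 0.26, adjusted p = 0.114). At 18 months Prim1 had 3.35, 4.93 and 8.22 CPM after MCAO and 1.71, 2.42 and 3.17 CPM in controls, with no overlap (1.17 ± 0.26, adjusted p = 0.000553). Prim2, the larger primase subunit, rose by 0.50 ± 0.19 and 0.73 ± 0.19. Its call at 3 months was lost in 10 of 33 alternatives, among them leaving out control A, B, D or F or MCAO A, C or E (adjusted p 0.0537 to 0.105) and no filter on low counts (adjusted p = 0.0729). With spike-in scaling Prim2 had 0.03 at 3 months and 0.43 at 18 months (adjusted p = 0.934 and 0.189).

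Both genes of Okazaki fragment processing rose at 18 months, where 23.7% of all genes rose. Fen1, the nuclease that trims flaps, had 28.8, 35.4 and 52.7 CPM after MCAO and 16.9, 21.3 and 26.7 CPM in controls at that age (0.78 ± 0.24, adjusted p = 0.00811). With spike-in scaling this call of Fen1 was lost (0.52, adjusted p = 0.169). At 3 months Fen1 had 7.28, 22.7 and 33.6 CPM after MCAO and 15.1, 20.9 and 22.7 CPM in controls (0.04 ± 0.24, adjusted p = 0.921). The groups overlapped at 3 months, with MCAO animals both below and above all controls. Lig1, the ligase that joins the fragments, rose by 1.39 ± 0.25 and 1.25 ± 0.25.

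Nucleotide supply genes included several of the largest changes. Rrm2, the regulatory subunit of ribonucleotide reductase made in S phase, had 14.4, 15.9 and 19.9 CPM after MCAO and 0.150, 1.08 and 2.10 CPM in controls at 3 months (4.02 ± 0.34, adjusted p = 4.81e-10). At 18 months Rrm2 had 11.5, 21.7 and 27.4 CPM after MCAO and 0, 0.448 and 1.26 CPM in controls (4.98 ± 0.36, adjusted p = 1.85e-11). Its partner Rrm1, the catalytic subunit, rose by 1.30 ± 0.16 and 1.38 ± 0.16. Tk1, the thymidine kinase of dividing cells, rose by 4.82 ± 0.50 at 3 months. At 18 months Tk1 had 224 counts after MCAO and 1 in controls, a ratio of CPM of 167 with a 95% counting interval of 29.6 to 6618. Tyms, which makes thymidylate, rose by 1.92 ± 0.28 and 2.12 ± 0.27. Dut, which clears dUTP, had 26.9, 43.2 and 52.3 CPM after MCAO and 34.1, 41.7 and 47.8 CPM in controls at 3 months (0.02 ± 0.14, adjusted p = 0.918). At 18 months the change of Dut was 0.18 ± 0.14 (95% interval -0.09 to 0.44).

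Genes that restore chromatin behind the fork rose at both ages. Uhrf1, which recruits the maintenance methyltransferase to newly copied DNA, rose by 4.47 ± 0.38 and 5.35 ± 0.38. Chaf1a, the large subunit of chromatin assembly factor 1, rose by 1.54 ± 0.25 and 1.53 ± 0.25. Chaf1b, its middle subunit, had 80 counts after MCAO and 2 in controls at 3 months, a ratio of CPM of 31.5 (8.44 to 265). At 18 months Chaf1b rose by 4.30 ± 0.61.

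Of 3 regulators of S phase entry, 0 passed the test at 3 months and 1 at 18 months. Of all genes, 20.1% and 23.7% rose and 17.3% and 21.5% fell. Ccne1, which encodes cyclin E1, had 17.2, 20.3 and 24.6 CPM after MCAO and 20.6, 22.2 and 27.3 CPM in controls at 3 months (-0.15 ± 0.23, adjusted p = 0.641). At 18 months Ccne1 had 5.54, 19.9 and 25.5 CPM after MCAO and 16.4, 20.1 and 38.8 CPM in controls (-0.27 ± 0.23, adjusted p = 0.35), the lowest change of the 40 genes at that age. Its groups overlapped at both ages. Ccne2, encoding cyclin E2, had 4.96, 6.17 and 8.86 CPM after MCAO and 2.95, 4.76 and 6.33 CPM in controls at 3 months (0.48 ± 0.28, adjusted p = 0.193). At 18 months Ccne2 had 2.99, 5.55 and 8.89 CPM after MCAO and 1.16, 3.32 and 5.05 CPM in controls, overlapping groups that passed the test (0.79 ± 0.29, adjusted p = 0.028). That call of Ccne2 was lost in 7 of 33 alternatives, among them without control B, E or F or MCAO C or E (adjusted p 0.053 to 0.0949) and with spike-in scaling (0.56, adjusted p = 0.194). E2f1, an activating E2F factor, had a change of 0.01 ± 0.25 at 3 months and -0.17 ± 0.25 at 18 months, with 95% intervals of -0.49 to 0.50 and -0.67 to 0.33. At 3 months E2f1 had 60.4 to 76.6 CPM in MCAO libraries A and C and 25.4 to 47.6 CPM in the other 4, against 38.0 to 49.9 CPM in controls. Without A and C its change was -0.45 ± 0.24 (adjusted p = 0.156). Tipin, which steadies stalled forks with Timeless, had changes of 0.20 ± 0.16 and 0.33 ± 0.16 that did not pass the test (adjusted p = 0.341 and 0.0826). Its change at 18 months passed in 6 of 33 alternatives.

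Age was compared in intact and in operated cortex. In controls, 0 of 40 genes differed between 18 and 3 months, where 0.603% of all genes did. At an unadjusted p below 0.05 there was 1 gene, Mcm2 (log2 change 0.57 ± 0.24, adjusted p = 0.437), and DESeq2 called 0. After MCAO, 4 genes were higher at 18 than at 3 months, where 6.4% of all genes were higher, and the median change of the 40 genes was 0.19. These were Gins2 (0.73 ± 0.16, adjusted p = 0.00435), Fen1 (0.91 ± 0.24, adjusted p = 0.0133), Mcm6 (0.51 ± 0.16, adjusted p = 0.0352) and Mcm2 (0.56 ± 0.18, adjusted p = 0.0488). Mcm2 kept its call in only 6 of 33 alternatives and lost it without any single control library (adjusted p 0.0501 to 0.057). Mcm6 kept its call in 23 of them, and lost it without MCAO A, C, D or E at 3 months or MCAO C or E at 18 months (adjusted p 0.0576 to 0.116). Gins2 had the CPM given above, 16.8 to 31.3 at 18 months and 10.2 to 17.2 at 3 months, which overlap slightly. Mcm6 had 33.2, 41.9 and 58.3 CPM after MCAO at 18 months and 23.6, 31.0 and 43.6 CPM after MCAO at 3 months, and controls had 5.14 to 7.42 CPM at 18 months and 4.70 to 9.91 CPM at 3 months. Mcm2 had 14.7, 24.3 and 29.0 CPM after MCAO at 18 months and 9.06, 16.5 and 22.1 CPM after MCAO at 3 months, and controls had 3.42 to 6.10 CPM at 18 months and 2.12 to 3.84 CPM at 3 months. Both genes overlapped between the ages after MCAO.

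Whether MCAO changed the genes more at 18 than at 3 months was tested as an interaction. It was called for 0 of 40 genes, where 0.0822% of all genes passed, and DESeq2 also called 0. At an unadjusted p below 0.05 stood Mcm6 (0.62, 95% interval 0.13 to 1.11, adjusted p = 0.353) and Fen1 (0.75, 0.08 to 1.41, adjusted p = 0.425). For Pcna the interval of the difference was -0.55 to 0.19, for Mcm5 -0.59 to 0.80 and for Rrm2 -0.16 to 2.08. Genes that passed the test at 1 age and not at the other are thus not shown to differ between ages.

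Libraries A and C of the MCAO group at 3 months stood apart from the other 4. Both were below all 4 for 5 of the 40 genes (12.5%, and 24.9% of all tested genes) and above all 4 for 16 (40%, and 24.9% of all). Mcm4 had 5.24 CPM in A and 12.7 CPM in C, against 37.4 to 50.5 CPM in the others. Fen1 had 7.28 and 11.3 CPM in A and C and 22.6 to 33.6 CPM in the others, and Orc6 had 3.13 and 10.9 CPM against 15.9 to 33.1 CPM. Lig1 was the opposite, with 286 and 176 CPM in A and C and 73.8 to 139 CPM in the others. Library A had 13.1 M gene counts, the most of the 24 libraries, whose range was 3.30 to 13.1 M. Across 14563 genes, the log2 difference of A and C from the other 4 went with the GC content of the last 500 bases of the transcript (Spearman rho 0.426, a description across genes that are not independent), and across the 40 genes rho was 0.308. The last 500 bases of Mcm4 have 30.6% GC, where the median of all was 43.4%. Microglial markers summed to 1762 and 1396 CPM in A and C and to 663 to 834 CPM in the others. What sets these libraries apart was not tested.

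**Figure D3:**
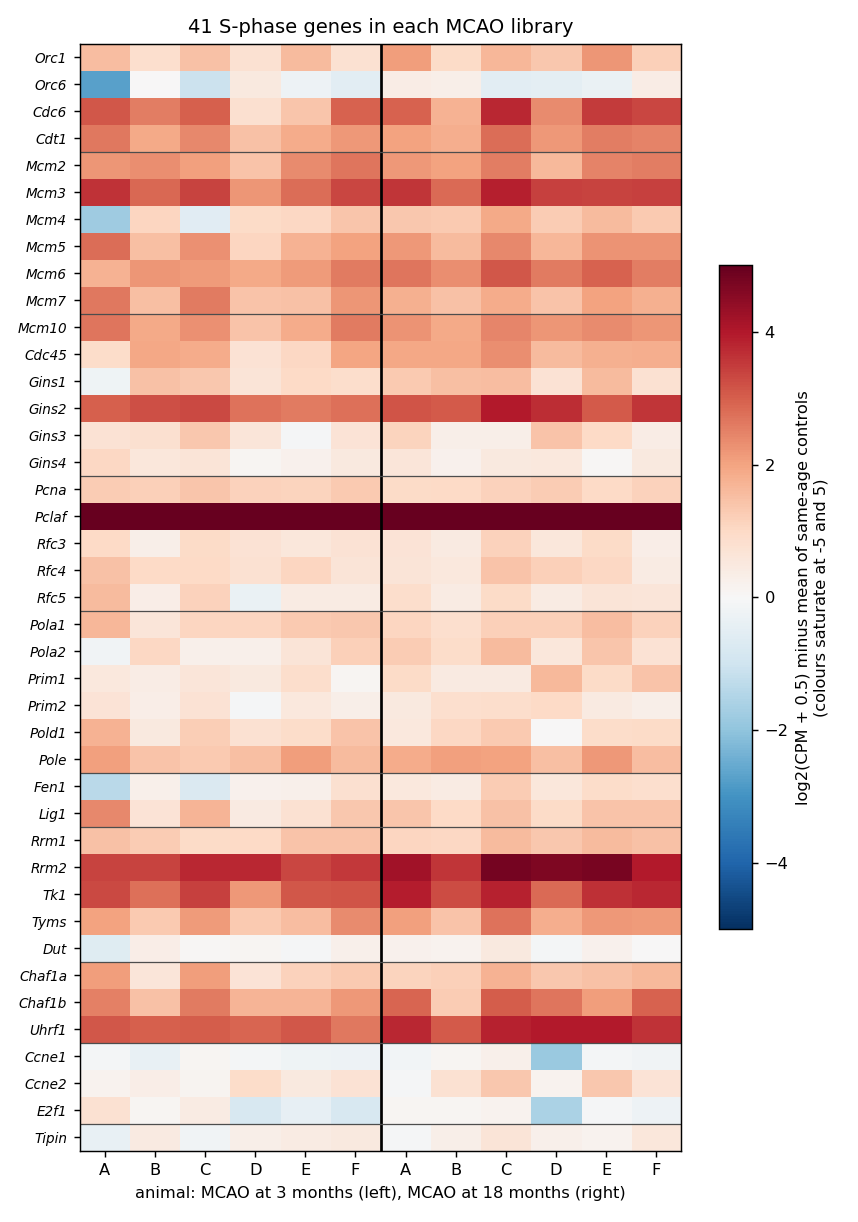
Difference of each of the 41 genes (rows, by role) from the mean of same-age controls, in log2(CPM + 0.5), in each MCAO animal (columns). Red is higher and blue is lower after MCAO. Pclaf is saturated in all columns but that of animal D at 3 months (4.96). Animals A and C at 3 months are blue for Orc6, Mcm4 and Fen1.

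Without A and C, 29 genes again passed at 3 months, 25 of them shared with the full set, where 17.3% of all genes rose. Mcm4 (1.14 ± 0.16, adjusted p = 2.13e-06), Gins1, Pola2 and Tipin then passed the test, with Tipin at 0.40 ± 0.14 (adjusted p = 0.0285). Gins3, Gins4, Rfc5 and Prim2 no longer did. Leaving out A alone was enough for Mcm4 to pass (0.93, adjusted p = 0.00185), as was leaving out C alone (0.84, adjusted p = 0.0445). Rfc5 had a change of 0.23 ± 0.17 (adjusted p = 0.31) in place of 0.75 ± 0.22, and Lig1 one of 0.85 ± 0.18 in place of 1.39 ± 0.25. Fen1 had 0.40 ± 0.17 (adjusted p = 0.0723). Of the age comparison after MCAO, Gins2 (0.85 ± 0.18, adjusted p = 0.00195) and Fen1 (0.56 ± 0.16, adjusted p = 0.022) remained, Mcm3 was added (0.61 ± 0.21, adjusted p = 0.0492), and Mcm2 and Mcm6 were lost (adjusted p = 0.0898 and 0.0884). These 3 are 7.5% of the 40 genes, where 8.86% of all genes were higher.

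**Figure D4:**
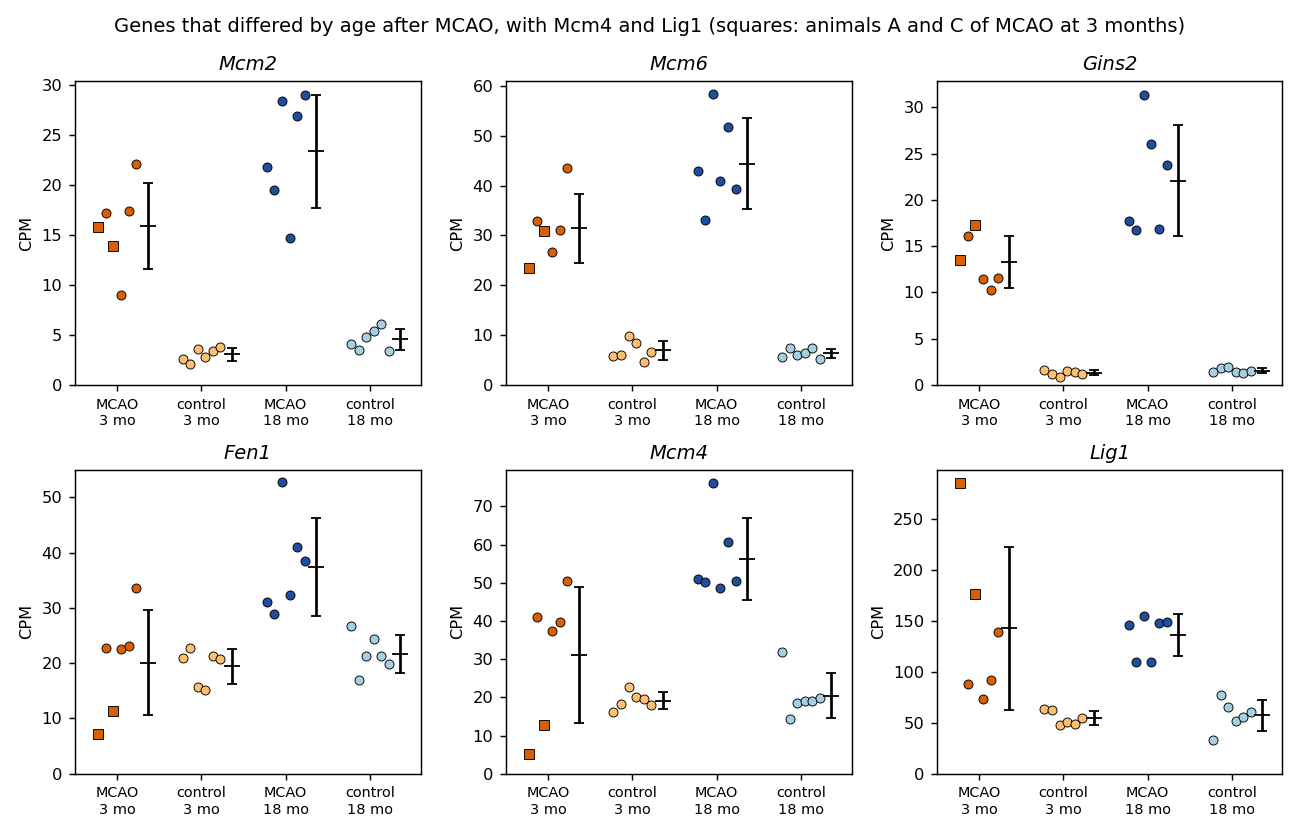
CPM (y axis, linear from 0) in each animal of the 4 groups for the 4 genes higher at 18 than at 3 months after MCAO, and for Mcm4 and Lig1. Bars are mean and SD, and squares mark animals A and C of MCAO at 3 months, which are the lowest in Fen1 and Mcm4 and the highest in Lig1.

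Other genes of the pathway were taken from lists. Of 45 further replication factors, 43 were tested. At 3 months 22 rose (51.2%) and 2 fell, with a median log2 change of 0.47, where 20.1% of all genes rose and 17.3% fell. At 18 months 23 rose (53.5%) and 3 fell, with a median of 0.50, where 23.7% of all genes rose and 21.5% fell. The genes that fell are named because they were few, after their values were seen. They were Orc4 (-0.49) and Tk2 (-0.34) at 3 months and Orc5 (-0.54), Rnaseh2a (-0.53) and Tk2 (-0.28) at 18 months. Orc4 and Orc5 encode subunits of the origin recognition complex, whereas Orc2 had changes of -0.00 ± 0.11 and 0.09 ± 0.11 and Orc3 of 0.35 ± 0.13 (adjusted p = 0.0299) and -0.01 ± 0.13. Dbf4, the activator of the Cdc7 kinase that fires origins, rose by 1.83 ± 0.19 and 2.37 ± 0.19. Clspn, a checkpoint adaptor at the fork, rose by 3.17 ± 0.34 and 4.78 ± 0.39, and Samhd1, which degrades dNTPs, by 0.94 ± 0.16 and 1.54 ± 0.16. After MCAO, 3 of the 43 genes (6.98%) were higher at 18 than at 3 months, near the 6.4% of all genes. They were Dbf4, Samhd1 and Timeless.

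Of 22 genes of G1/S control, 21 were tested, and 13 rose at each age (61.9%), where 20.1% and 23.7% of all genes rose. At 3 months 2 fell and at 18 months 1, where 17.3% and 21.5% of all genes fell. The median changes were 0.89 and 0.57. Ccnd1, the D cyclin that answers growth signals, rose by 1.56 ± 0.17 and 1.91 ± 0.18, Ccnd2 by 0.56 ± 0.12 and 0.51 ± 0.12, and Ccnd3 by 1.21 ± 0.20 and 1.27 ± 0.20. Their kinase partner Cdk6 rose by 1.47 ± 0.15 and 1.78 ± 0.15. Ccna2, the cyclin of S and G2 phase, rose by 3.41 ± 0.26 and 4.50 ± 0.26. The genes that fell, again named after their values were seen, were E2f6 at 3 months (-0.46, adjusted p = 0.0302) and Fbxw7, which targets cyclin E for degradation, at both ages (-0.79 and -0.90).

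All 25 genes of G2 and M phase rose at both ages, with medians of 3.85 and 4.54, where 20.1% and 23.7% of all genes rose. MCAO and control animals did not overlap for any of them, where 11.1% and 16% of all genes had no overlap, with MCAO higher. Ube2c, of the anaphase ubiquitin machinery, rose by 6.06 ± 0.33 and 7.68 ± 0.37. Cdk1, the mitotic kinase, rose by 6.03 ± 0.32 and 7.32 ± 0.35, and Birc5, of the chromosomal passenger complex, by 3.85 ± 0.21 and 4.44 ± 0.22. Mki67 and Top2a rose by 6.59 ± 0.46 and 6.45 ± 0.34 at 3 months. Ccnb1 rose by 1.54 ± 0.27 and 2.71 ± 0.29. The promoter windows of 21 of these genes held the letters TTTGAA in 15 (71.4%) and E2F-type letters in 1. The difference between this list and the S-phase genes was not tested.

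**Figure D5:**
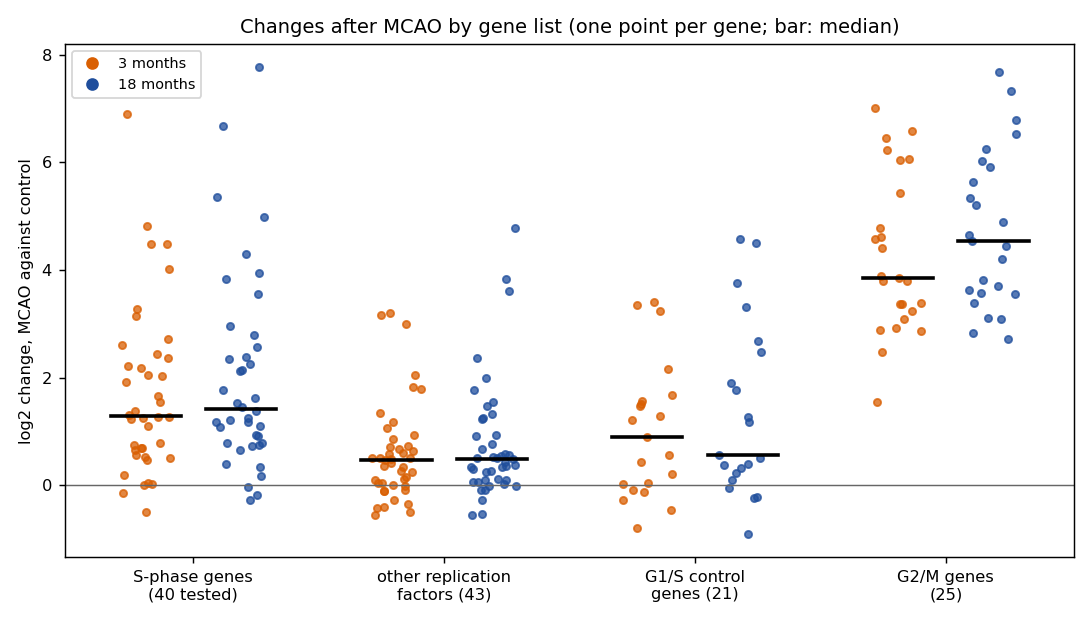
Log2 change, MCAO against control (y axis), of each tested gene in 4 lists at 3 and 18 months, with the median as a bar. The medians of the S-phase genes are 1.29 and 1.42 and those of the G2/M genes 3.85 and 4.54, and Bub1 of the G2/M list had no count in controls at 3 months, so its position there is a fitted value.

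Markers of cell types moved in the same comparisons. Of all genes, 20.1% rose and 17.3% fell at 3 months, and 23.7% rose and 21.5% fell at 18 months. Of 7 neuron markers, 0 rose, and 4 fell at 3 months and 6 at 18 months. Together the 7 summed to 8576 to 10431 CPM after MCAO and 13769 to 16857 CPM in controls at 3 months. At 18 months they summed to 4943 to 9418 CPM after MCAO and 12864 to 15202 CPM in controls. All 6 microglial markers rose at both ages, with sums of 663 to 1762 CPM after MCAO and 255 to 305 CPM in controls at 3 months. At 18 months these sums were 847 to 1048 CPM after MCAO and 238 to 332 CPM in controls. All 5 fibroblast markers rose, with sums of 161 to 650 CPM after MCAO and 35.7 to 51.1 CPM in controls at 3 months, and 231 to 1284 CPM after MCAO and 29.0 to 53.2 CPM in controls at 18 months. The 5 markers of oligodendrocyte precursors rose to sums of 205 to 353 CPM after MCAO, against 142 to 188 CPM in controls, over both ages. Pdgfra stands in both of those lists. Endothelial markers rose in 5 of 6 genes at 3 months and 6 of 6 at 18 months. Markers of infiltrating macrophages summed to 15.4 to 329 CPM after MCAO and to at most 2.46 CPM in controls, and those of neutrophils to 11.6 to 129 CPM after MCAO and to at most 5.73 CPM in controls. Of the macrophage sum, Cd5l alone held 279 of 329 CPM in MCAO library A at 3 months, and 7.43 to 60.9 CPM after MCAO at 18 months. Of 6 astrocyte markers, 3 rose and 1 fell at 3 months and 4 rose and 1 fell at 18 months. Their sums were 2207 to 3376 CPM after MCAO and 3355 to 3855 CPM in controls at 3 months, and 2506 to 3579 CPM after MCAO and 3115 to 4606 CPM in controls at 18 months. Erythrocyte markers reached 1278 CPM in MCAO library F at 18 months, with 38.4 to 394 CPM in the other 5 of that group and 4.13 to 64.6 CPM in controls of that age. After MCAO, 4 of 4 tested erythrocyte markers were higher at 18 than at 3 months, where 6.4% of all genes were higher. So were 3 of 5 oligodendrocyte markers and 2 of 4 each of neutrophils and infiltrating macrophages. Fibroblasts and oligodendrocyte precursors had 2 of 5 each, endothelial cells 2 of 6, microglia and astrocytes 1 of 6 each and pericytes 0 of 5. Of the neuron markers, 3 of 7 were lower. Lymphocyte markers summed to at most 6.14 CPM in any library, and none was tested. Choroid plexus markers summed to 1430 CPM in library C of MCAO at 3 months and 796 CPM in 1 control library at 3 months. Which of these cells carried the S-phase transcripts was not tested.

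Reads of neighbouring genes may reach some values. In GENCODE M21 on GRCm38, another gene lies over the last 500 bases of 11 of the 41 genes, on the opposite strand for all but Cdt1. They include Pclaf with Trip4 (Pclaf at chromosome 9, 65890237 to 65903266, plus strand), Rfc5 with Wsb2, Rfc4 with Eif4a2 and Mcm7 with Cops6. The strand setting of the counting is not given in the sources used here. Pcna and Tyms have annotated processed pseudogenes named after them, so their counts may be shared with these. Pseudogenes under other names were not searched for.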

How the data were processed

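Libraries were made from total RNA of parietal cortex with the QuantSeq 3′ kit, which reads only the end of a transcript, per the labels' protocols. The authors deposited raw counts per gene, and a table of normalized signal was not used here. Trimmomatic, HTSeq, DESeq2 and build GRCm38 are named in the submitters' processing notes, without versions, and the aligner is not given in the sources used here. Spike-ins (92) and 5 summary lines were kept out of library sizes; reads outside genes were 25.7% to 34.5%. A symbol was matched to 46488 of 46983 identifiers.

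Counts were scaled by TMM, filtered at a minimum count of 10 by filterByExpr and fitted over all 24 libraries with edgeR 4.0.16 (quasi-likelihood, R 4.3.3, limma 3.58.1). Benjamini-Hochberg adjustment was made over 14599 genes within each of the 5 contrasts. SE is the log2 change divided by the square root of F. DESeq2 1.42.0 was an alternative. Scripts were tested on simulated data. Intervals of count ratios cover counting error only. Members, gene lists and marker lists were chosen with earlier results of these data known. All 41 genes may be named, with values by animal for 5 genes of known roles, the extremes, untested genes and those called at only 1 age or between ages. Of other lists, the first 3 genes and the 3 of smallest p at 18 months are named. Letters A to F name animals and are not stated to pair, so no block was used. Libraries of a group differed beyond sampling noise in all 60 pairs (chi-square per degree of freedom 3.19 to 69.8). Protein sequences were not analysed here.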

Additional observations from a re-analysis of the deposited data

Results flagged for a closer look

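In 7 of 160 groups of 6 animals (4.38%), 1 animal lay far from the others by Dixon's criterion, where chance flags about 1 in 20 groups. Animal D of MCAO at 18 months had 5.54 CPM of Ccne1, with the other 5 at 18.9 to 25.5 CPM, and 12.2 CPM of E2f1, with the others at 31.4 to 42.0 CPM. Animal A of the controls at 18 months had 38.8 CPM of Ccne1, with the others at 16.4 to 23.0 CPM, 31.7 CPM of Mcm4, with the others at 14.4 to 19.8 CPM, and 0.180 CPM of Tk1, with the others at 0. Animal A of the controls at 3 months had 0.553 CPM of Tk1, with the others at 0 to 0.192 CPM. These Tk1 values of animals A are 3 counts at 3 months and 1 count at 18 months, near the floor. Animal B of the controls at 3 months had 3.02 CPM of Mcm7, with the others at 7.93 to 8.63 CPM.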

How the results depend on the processing

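The number of S-phase genes called after MCAO was 28 to 30 at 3 months and 33 to 35 at 18 months with each library left out in turn, and 24 to 30 and 26 to 36 under the other alternatives. Counts of 0 for age in controls and for the difference of the MCAO effect held in every alternative run; the fit with the groups of a contrast alone gives no value for that difference. The count for age after MCAO was 4, and 2 with spike-in scaling, 2 with no filter on low counts, 7 with DESeq2 and 1 with the groups of the contrast alone. The share of all genes that were higher was 6.4% in the main fit and 4.42% with spike-in scaling. Beyond the main fit, shares of all genes were computed only for the other scalings and without MCAO_3M A and C. With each library left out the count was 2 to 7, at 2 without MCAO_3M C, D or E or MCAO_18M C or E and at 7 without MCAO_3M F. A count of 4 did not always hold the same genes: Uhrf1 stood in place of Mcm2 with scaling by totals and without some controls. The cause was not tested. With a replicate block by animal letter, the counts were 29, 34, 0, 4 and 0; at 18 months Ccne2 was lost (adjusted p = 0.0507) and Gins4 added (0.42, adjusted p = 0.0272). Deviations of same-letter libraries correlated at -0.296 to 0.307, over 0.1 in 9 of 36 pairs. Between MCAO at 3 and at 18 months they correlated at 0.0244 to 0.307, over 0.1 in 4 of 6 pairs. Libraries of different letters were not compared, so whether same-letter animals are linked was not tested. Over all genes, 2930 rose and 2521 fell at 3 months, 3729 and 1203 with scaling by totals, and 1411 and 6178 with spike-ins. At 18 months 3463 rose and 3143 fell, 4143 and 2134 with totals, and 2007 and 4119 with spike-ins. Leaving out A and C of MCAO at 3 months was chosen after seeing the data; 4 of 25 genes of the G2/M list were then higher at 18 months after MCAO, in place of 0, where 8.86% of all genes were higher. At 3.30 to 13.1 M counts, rare genes such as Orc1, Tk1 and Chaf1b have few control counts.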
